A study of Mus musculus with 2 samples.

Results

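Clustered histone genes encode the linker histone H1 and the core histones H2A, H2B, H3 and H4, and in the mouse they sit in 4 groups named Hist1 to Hist4. The members are all genes whose GENCODE M21 symbol starts with Hist1h, Hist2h, Hist3h or Hist4h, which gave 70 of the 55536 annotated genes. By type there are 6 H1, 20 H2A, 19 H2B, 12 H3 and 13 H4 genes. By location 56 lie in Hist1 on chromosome 13, 10 in Hist2 on chromosome 3, 3 in Hist3 on chromosome 11 and 1 in Hist4 on chromosome 6. Of the 70, 67 are annotated as protein-coding and 3 as pseudogenes, namely Hist1h2aj, Hist1h2al and Hist3h2bb-ps.

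The RNA came from cells labelled as regulatory T cells, the CD4 T cells that hold immune responses in check, of a male mouse aged 9 weeks. The labels name no treatment and no strain. RNA carrying a poly(A) tail was selected and sheared before 2 libraries were made, which are technical replicates 1 and 2 of 1 biological replicate (library 1 and library 2 below). There is 1 group and no treated arm, so no test was made, and every ± value is an SD over 2 libraries of the same biosample that says nothing about other mice.

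Estimated counts over annotated genes totalled 34697128 in library 1 and 32049199 in library 2. All 7 markers of regulatory T cells were at 109 TPM or more on average, with Cd3e, a chain of the T cell receptor complex, highest at 1098 TPM. TPM is a level corrected for transcript length and scaled to the same total in each library. Markers of other cells were present too: the 4 B cell markers summed to 45.8 and 40.3 TPM, the 4 myeloid markers to 23.1 and 17.4 TPM and the 2 CD8 T cell markers to 25.8 and 26.1 TPM. Of the erythroid markers, the globin gene Hba-a2 had 141.08 and 126.06 TPM. The globin gene Hbb-bs had 129.54 and 126.11 TPM, while Klf1, a defining erythroid transcription factor, had 0.13 and 0 TPM. Alas2, the erythroid enzyme that starts heme synthesis, had 2.76 and 2.5 TPM. The part of these cells in the histone levels was not tested. In bulk RNA, fewer cells that express a gene and less RNA per cell cannot be told apart.

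Most clustered histone genes are used during S phase, when new DNA has to be packed into chromatin. Their mRNAs have no poly(A) tail but end just after a short hairpin, the histone stem-loop, which is bound by the stem-loop binding protein Slbp. Selection for poly(A) tails therefore leaves out most of this RNA, although some clustered genes are also known to give longer, polyadenylated transcripts in cells that have stopped dividing. Replacement variants such as H3f3a and H2afz lie outside the clusters, are made through the whole cell cycle and have ordinary poly(A) tails.

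The stem-loop was searched by name, as 16 bases with a 6-base stem and a 4-base loop, in the sense strand of the annotated transcripts. It was found in the leading transcript of 45 of the 70 members, the transcript with the most estimated counts. Counting any transcript, 46 members held it, in 8 different spellings. The most frequent spelling was held by 26 members and the next by 7. Over all annotated transcripts, 111 of 141767 (0.0783%) held a match, and among protein-coding transcripts 87 of 58797 (0.148%), against 48 of 72 (66.7%) of the protein-coding transcripts of the members. Outside the members 40 genes held a match, among them the variants H2afx and H2bfm. The stem-loops of 8 members at 1 TPM or more follow, because the annotated distance from this element to the end of the transcript sorts the members' values below. They are read 5′ to 3′ from the GENCODE M21 transcripts on GRCm38, with the stem-loop in capitals and up to 5 flanking bases in lower case. Their positions are chr13:23739507-23739532 on the plus strand for Hist1h1c, chr11:58955167-58955192 on the plus strand for Hist3h2a, chr11:58949344-58949369 on the plus strand for Hist3h2ba and chr13:22040961-22040986 on the minus strand for Hist1h4i. For the other 4 they are chr13:21833026-21833049 on the minus strand for Hist1h2ap, chr3:96239779-96239804 on the minus strand for Hist2h2aa2, chr13:21812124-21812147 on the plus strand for Hist1h4m and chr13:23757361-23757386 on the plus strand for Hist1h4b.
Hist1h1c: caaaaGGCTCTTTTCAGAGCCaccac
Hist3h2a: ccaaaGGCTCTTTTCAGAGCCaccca
Hist3h2ba: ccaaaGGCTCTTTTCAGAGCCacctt
Hist1h4i: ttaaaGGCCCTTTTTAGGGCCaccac
Hist1h2ap: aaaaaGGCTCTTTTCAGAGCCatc
Hist2h2aa2: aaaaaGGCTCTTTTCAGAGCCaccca
Hist1h4m: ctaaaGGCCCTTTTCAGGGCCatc
Hist1h4b: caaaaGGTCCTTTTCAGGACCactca
The annotation ends 3 bases after the stem-loop in Hist1h2ap and Hist1h4m, 28 bases after it in Hist1h4b and 35 bases after it in Hist2h2aa2. It runs on for 169 bases in Hist3h2ba, 330 in Hist1h4i, 840 in Hist1h1c and 1643 in Hist3h2a. Hist1h1c, Hist3h2a, Hist3h2ba, Hist1h2ap and Hist2h2aa2 carry the same 16 bases, so the letters of the stem-loop do not separate the long annotations from the short ones.

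Together the clustered genes were a small share of the polyA-selected RNA. Their TPM summed to 432.19 in library 1 and 494.21 in library 2, which is 0.0435% and 0.0497% of the TPM of all annotated genes (mean 0.0466% ± 0.00443, SD, n = 2). Their estimated counts were 6245 and 6775, or 0.0180% and 0.0211% of the total. Both measures were higher in library 2.

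Detection here means a level of at least 1 TPM in each library. That held for 32 of the 70, all of them protein-coding, so for 32 of the 67 protein-coding members. Across all protein-coding genes the share was 48.0%, and across all annotated genes 23.9%, so the members were detected about as often as protein-coding genes in general. Their levels were lower: the median detected member was at 5.39 TPM, against 31.1 TPM for detected protein-coding genes. Library 2 alone placed 43 members at 1 TPM or more, and library 1 alone 33. The shares of all genes in each library alone were not computed. By type the detected members were 3 of 6 H1, 8 of 20 H2A, 10 of 19 H2B, 2 of 12 H3 and 9 of 13 H4 genes.

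**Figure D1:**
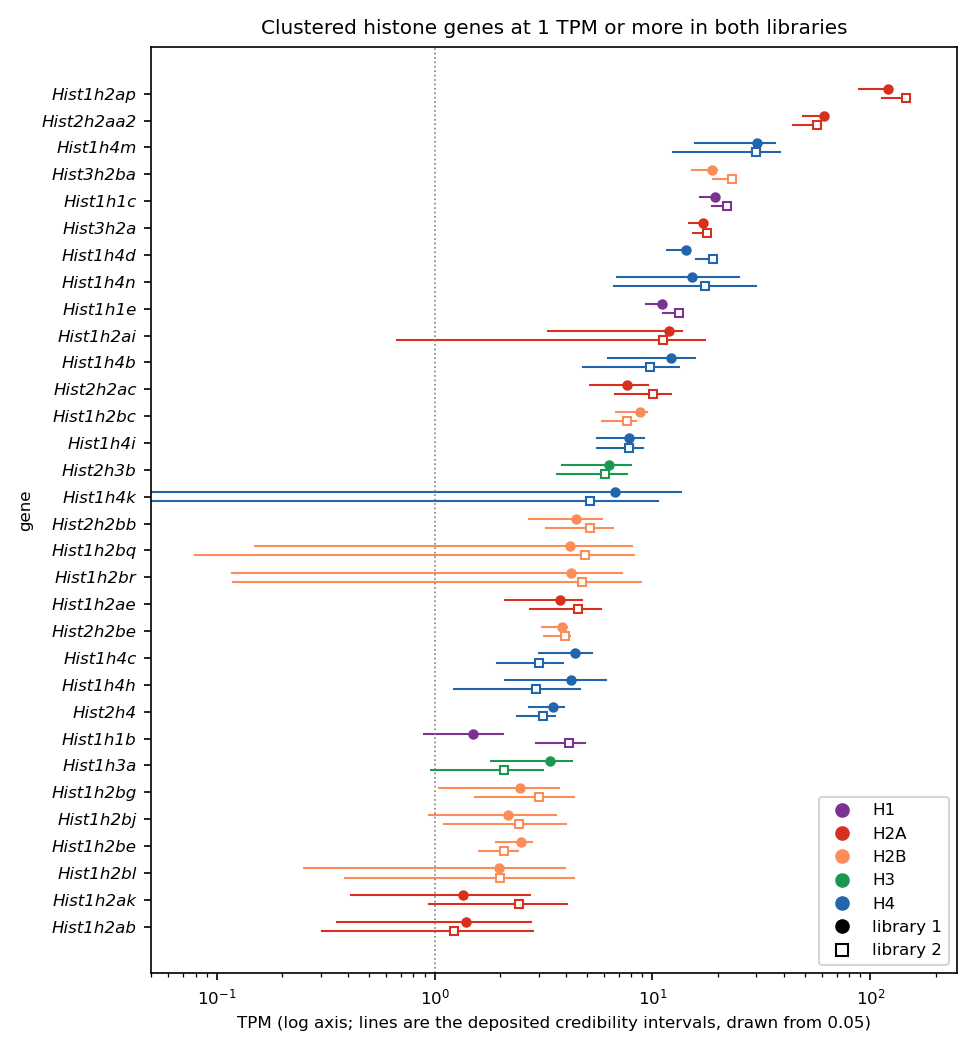
TPM of the 32 clustered histone genes detected in both libraries, on a log axis, ordered by mean level; filled circles are library 1, open squares library 2, lines the deposited credibility intervals and colours the histone types. Hist1h2ap stands highest in both libraries, and the intervals of Hist1h4k, Hist1h2bq, Hist1h2br and Hist1h2bl in both libraries and of Hist1h2ai in library 2 span more than a factor of 10, those of Hist1h4k running off the left edge.

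The 3 highest members, Hist1h2ap, Hist2h2aa2 and Hist1h4m, held 48.99% of the members' TPM in library 1 and 46.9% in library 2. Summed by type, H2A genes gave 227.58 and 274.83 TPM, H4 genes 100.71 and 99.34 TPM, and H2B genes 56.30 and 66.23 TPM. H1 genes gave 33.34 and 40.49 TPM and H3 genes 14.26 and 13.32 TPM. As shares of the members' TPM, H2A held 54.1% ± 2.09, H4 21.7% ± 2.26, H2B 13.2% ± 0.265, H1 7.95% ± 0.338 and H3 3.00% ± 0.427 (SD, n = 2 each). In TPM the order of the types was the same in both libraries. In estimated counts H1 took 18.8% and 19.9% and H4 19.4% and 17.8%, so H1 was the lower of these in library 1 and the higher in library 2. The core histones enter the nucleosome in equal numbers, and their clustered genes were not equally represented in this RNA.

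**Figure D2:**
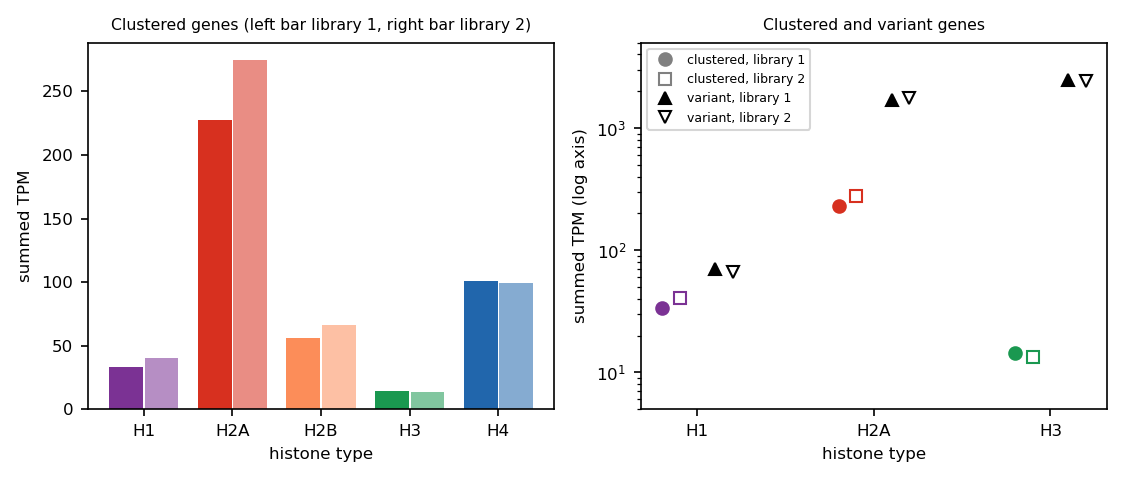
Left, summed TPM of the clustered genes of each histone type, with a bar for each library; right, the same sums on a log axis for clustered genes (coloured) and for variant genes outside the clusters (black), for the types with variants above 0. H2A has the tallest bars and H3 the lowest, and clustered H3 lies at 14.26 and 13.32 TPM while the H3 variants lie at 2466 and 2422 TPM.

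H1 histones bind the DNA that enters and leaves the nucleosome. Hist1h1c (chr13:23738808-23740367, plus strand, GRCm38) had 19.41 TPM in library 1 and 21.95 TPM in library 2, from 620 and 681 estimated counts. Hist1h1e (chr13:23620629-23622558, minus strand) had 11.04 and 13.26 TPM. Both are annotated with a long 3′ end, 840 and 1153 bases beyond the stem-loop, and both were slightly higher in library 2. Hist1h1b had 1.5 and 4.14 TPM and is described with the library differences below. Hist1h1d reached only 0.50 and 0.58 TPM but held 77.62 and 87.51 estimated counts, because its annotated transcript is 7425 bases long. Hist1h1a had 0.89 and 0.56 TPM, and Hist1h1t, a linker histone of the testis, had no counts in either library.

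H2A forms a dimer with H2B at the faces of the nucleosome. Hist1h2ap (chr13:21833026-21833507, minus strand) was the highest member, with 120.02 and 145.08 TPM from 1099 and 1289 estimated counts. Hist2h2aa2 (chr3:96239749-96240276, minus strand) had 61.60 and 56.66 TPM, and Hist3h2a (chr11:58954685-58956830, plus strand) had 17.07 and 17.77 TPM. Hist3h2a nevertheless held 757 and 765 estimated counts, more than Hist2h2aa2 with 624 and 557, spread over a transcript of 2146 bases against 528. Hist1h2ai had 11.96 and 11.22 TPM. Hist2h2ac had 7.65 and 10.09 TPM. The next, Hist1h2ae, had 3.77 and 4.54 TPM. These 3 kept the same order among themselves in both libraries and lay well below the leading pair, but the interval of Hist1h2ai in library 2 ran from 0.674 to 17.4 TPM. In library 2 the pseudogene Hist1h2aj, at 10.18 TPM, stood above Hist2h2ac. Hist1h2ak, at 1.35 and 2.44 TPM, and Hist1h2ab, at 1.39 and 1.23 TPM, were close to the threshold. The other 12 H2A genes, 2 pseudogenes among them, were below 1 TPM in at least 1 library. Hist1h2aa, an H2A of the testis, was at 0 in both.

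H2B members were numerous and low. Hist3h2ba (chr11:58948920-58949533, plus strand) was highest, with 18.72 TPM in library 1 and 23.12 TPM in library 2. Hist1h2bc followed with 8.76 and 7.68 TPM. The third was Hist2h2bb with 4.48 and 5.17 TPM. Below these, 3 genes lay close together. Hist1h2br had 4.21 and 4.77 TPM. Hist1h2bq had 4.17 and 4.92 TPM. Hist2h2be, known in mice as an H2B variant of olfactory sensory neurons, had 3.85 and 3.96 TPM. The remaining 4 detected H2B genes lay between 1.98 and 3.00 TPM. Hist1h2be had 2.49 and 2.09 TPM. Hist1h2bg had 2.47 and 3.00 TPM. Hist1h2bj had 2.17 and 2.44 TPM. Within this group the order of neighbours changed between the libraries. Hist1h2bl was lowest, with 1.98 and 2.00 TPM. Hist1h2ba, the H2B of the testis, was at 0 in both libraries.

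H3 and H4 form the tetramer at the core of the nucleosome, and here they differed in level. Among H3 genes only Hist2h3b (chr3:96268654-96269141, plus strand), with 6.35 and 6.08 TPM, and Hist1h3a, with 3.38 and 2.09 TPM, were detected. H4 genes were detected more widely, and Hist1h4m (chr13:21811746-21812147, plus strand) led with 30.11 and 29.81 TPM. Its near copy Hist1h4n had 15.12 and 17.39 TPM. Hist1h4d (chr13:23581598-23582735, plus strand) had 14.28 and 18.93 TPM. Hist1h4b had 12.11 and 9.72 TPM. These 4 lay above all other H4 genes in both libraries. Hist1h4i had 7.82 and 7.81 TPM. Hist1h4k had 6.73 and 5.19 TPM. Hist1h4c had 4.39 and 3.02 TPM. By mean level Hist1h4h and Hist2h4 were the lowest detected H4 genes. Hist1h4h had 4.25 and 2.92 TPM. Hist2h4 had 3.51 and 3.15 TPM.

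Closest to the threshold from above was Hist1h2ab at 1.39 and 1.23 TPM. Closest from below, by the lower of the libraries, were Hist1h3i at 0.96 and 1.09 TPM and Hist1h2an at 0.83 and 3.24 TPM. Below the threshold in both libraries were 26 members. The undetected members with the most summed counts were Hist1h1d, Hist4h4 with 56 and 35, Hist1h2ag with 4.48 and 69.13, Hist1h2aj with 0 and 63.28, and Hist1h2ac with 25.42 and 34.18 estimated counts. At 0 in both libraries were 8 members: Hist1h1t, Hist1h2aa, Hist1h2af, Hist1h2ah, Hist1h2al, Hist1h2ao, Hist1h2ba and Hist2h3c1.

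For Hist1h2ao a listed 0 did not settle the level. Its estimated count was 0 in both libraries, yet the posterior mean TPM in the deposited tables was 6.03 and 5.32. Its interval ran from 4.28e-04 to 17.95 TPM in library 1 and from 1.35e-04 to 14.32 TPM in library 2, so a level near 0 lies within it. The posterior mean is an average over the ways in which the model could divide shared reads between genes. Hist1h2ah was listed at 0 too, with a posterior mean of 1.55 and 3.62 TPM. Hist1h1t, also at 0, had a posterior mean of only 0.05 TPM in each library and upper bounds of 0.153 and 0.159 TPM, so a listed 0 stood for different degrees of certainty.

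Many members spell the same bases over long stretches of their coding sequences. Stretches of 50 bases were compared because the deposited effective length was the annotated length less 49 bases in 100% of 168207 transcripts. Only the sense strand of each transcript was compared. The stretch below from the H2A gene Hist1h2ap (coding bases 178 to 227, chr13:21833249-21833298, minus strand, GRCm38) occurs in 18 of the 20 H2A members and in 1 other gene. The one from the H4 gene Hist1h4m (coding bases 193 to 242, chr13:21811976-21812025, plus strand) occurs in 11 of the 13 H4 members and in no other gene. They are shown because a read that falls in them cannot be given to 1 gene, and they are in lower case throughout since they hold no stem-loop.
H2A stretch: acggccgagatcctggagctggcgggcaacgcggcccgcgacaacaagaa
H4 stretch: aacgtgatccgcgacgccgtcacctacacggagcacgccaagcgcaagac
An H3 stretch of Hist2h3b was shared by all 12 H3 members, an H2B stretch of Hist1h2bc by 15 H2B members and an H1 stretch of Hist1h1c by 3 H1 members.

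Counted over whole annotated genes on the sense strand, the median member had 50.4% of its 50-base stretches in no other annotated gene. With either strand counted, some had fewer: Hist2h2bb fell from 154 own stretches to 0 and Hist2h3b from 89 to 0. Only Hist2h2be, Hist1h1b, Hist1h1a and Hist1h1t had 100% of their own. Under 25% were 20 members, 9 of them detected, and these 20 held 59.8% and 61.6% of the members' TPM. The closest pairs were near copies: Hist1h2ap shared 403 of its 433 stretches (93.1%) with Hist1h2ao, and Hist1h4m shared 317 of 353 (89.8%) with Hist1h4n. Hist2h2aa2 shared all 479 of its stretches with Gm20634, a processed transcript listed at 2.53 and 2.76 TPM. The split of TPM within such pairs is uncertain, and their sums are safer: Hist1h4m and Hist1h4n together had 45.23 and 47.20 TPM, and Hist1h2bq and Hist1h2br together 8.38 and 9.69 TPM. With Hist1h2ao at 0, the Hist1h2ap and Hist1h2ao pair had 120.02 and 145.08 TPM.

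The deposited posterior SD showed the same uncertainty per gene. Hist2h2be, which shares no stretch, had 209 estimated counts in each library with a posterior SD of 0. Hist1h4m had 224.67 and 215.94 estimated counts with posterior SDs of 39.76 and 53.07. Dividing the posterior SD by the posterior mean count, the median over members with 10 to 100 counts was 24.2% in library 1 and 25.2% in library 2, against 0% for all genes in that range in both libraries. With 100 to 1000 counts it was 2.38% and 2.12% for members, against 0.0403% and 0.0263% for all genes. A posterior SD of 0 in both libraries was found in 4 members with counts, Hist2h2be, Hist1h1b, Hist1h1a and Hist4h4. By library, with 10 to 100 counts, the SD was 0 in 9.68% and 5.41% of members, against 51.0% and 50.8% of all genes. With 100 to 1000 counts it was 0 in 7.69% and 8.33% of members, against 47.8% and 48.5% of all genes. Across members, this relative SD fell with the share of own stretches, with a Spearman rho of -0.77 in each library (45 members in library 1, 50 in library 2, described with no p since members share sequence, library and depth). The posterior SD covers how reads were divided and not how many were sampled, since it is 0 for genes with no shared sequence.

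**Figure D3:**
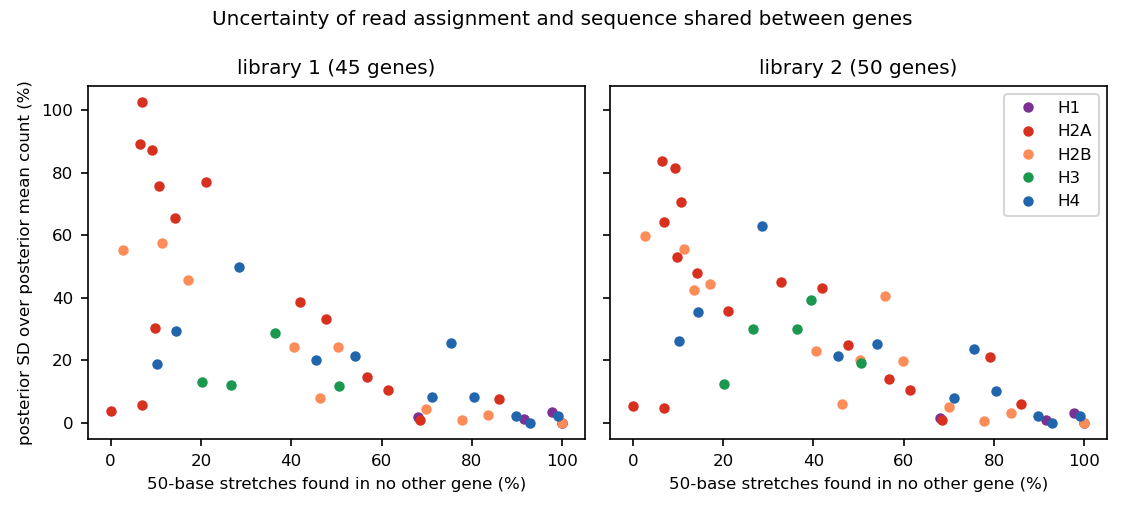
Posterior SD divided by posterior mean count (percent, vertical) against the share of 50-base stretches found in no other gene on the sense strand (percent, horizontal), for members with a posterior mean count of 10 or more, coloured by type, with library 1 left and library 2 right. Values run up to 103% in library 1 among H2A genes with few stretches of their own and are 0 for genes with 100%.

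A second deposited table gave whole-number counts on the older GENCODE M4 annotation from alignments to the genome. It held 65 of the 70 members, all except Hist2h2bb, Hist3h2bb-ps, Hist1h2aj, Hist1h2bm and Hist1h2bh. Hist1h2ap, Hist2h2aa2 and Hist1h4m, the 3 leading members by TPM, had 0 M4 counts in both libraries. Over all 65 the M4 counts were 1272 and 1432, which is 20.5% and 21.5% of their M21 estimated counts. For members with 100 to 1000 M21 counts the median ratio was 15.8% and 22.1%, against 52.3% and 52.0% for all genes in that range. An M4 count of 0 in both libraries was found for 14 members, which held 52.7% and 50.3% of the members' TPM. Of these 14, 6 had an M21 estimated count of 0 in each library as well. With 100 to 1000 M21 counts, 15.4% and 16.7% of members had an M4 count of 0, against 2.08% and 1.93% of all genes. With 10 to 100 counts it was 21.7% and 15.6% of members, against 6.04% and 7.54% of all genes.

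The highest M4 counts belonged to members with much sequence of their own. Hist1h1c, with 91.5% own stretches, had 229 and 255 M4 counts. Hist1h1e, with 68.0%, had 208 and 249. Hist3h2a, with 68.5%, had 197 and 217. These 3 and Hist1h4d, with 133 and 171, led the members in the M4 table, followed by Hist3h2ba with 69 and 77. Others with much own sequence had few M4 counts. Hist2h2be, with 100%, had 33 in each library against 209 estimated counts. Hist1h2be, with 83.7%, had 8 and 5 against 111 and 91.6 estimated counts. The 20 members with under 25% own stretches had 25 and 26 M4 counts in all. Across members, the ratio of M4 to M21 counts rose with the share of own stretches, with a Spearman rho of 0.66 in library 1 (37 members) and 0.74 in library 2 (45 members), again a description without a p. Of the 10 members with the most M21 estimated counts, 6 were among the 10 with the most M4 counts. The sources used here do not give the aligner, its handling of reads with several matches or the counter, and the builds of the annotation differ as well, so which of these sets the ratio was not tested.

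**Figure D4:**
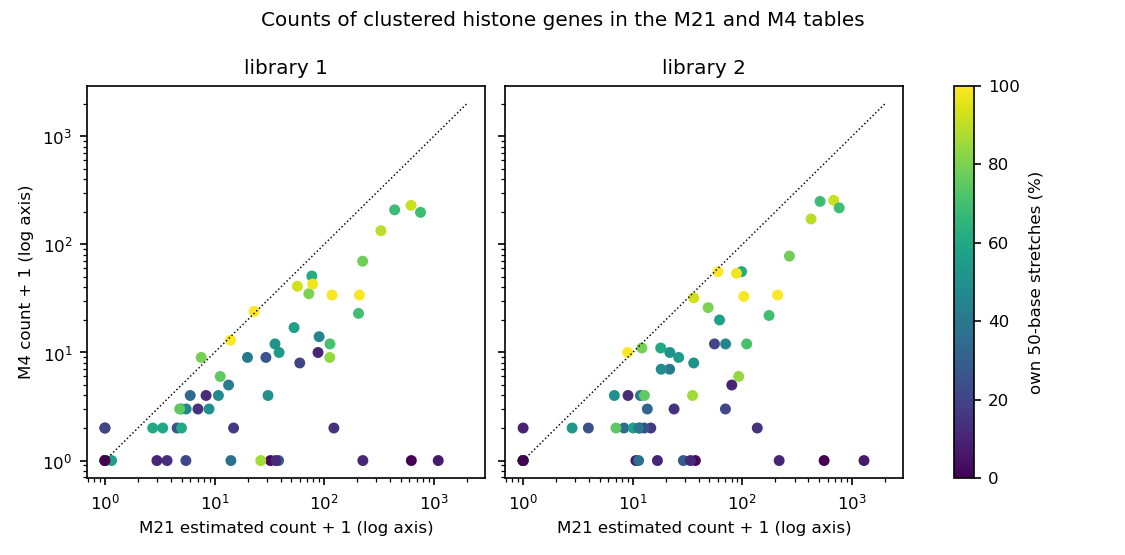
M4 read count plus 1 (vertical) against M21 estimated count plus 1 (horizontal), both on log axes, for the 65 members in both tables, with library 1 left and library 2 right, coloured by the share of 50-base stretches found in no other gene on the sense strand. The dotted line marks equal counts. The darkest points, with few stretches of their own, lie along the bottom, and the furthest right of them is Hist1h2ap at 1099 and 1289 estimated counts and 0 M4 counts.

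Sorted by the annotated 3′ end, the members fell into groups of similar size. A stem-loop followed by at least 100 annotated bases was found in 22 members, 10 of them detected, and one followed by fewer bases in 23 members, also with 10 detected. The long group held 47.7% and 47.4% of the members' estimated counts, against 38.02% and 38.29% in the short group. Per length the order turned round, since the long group held 25.02% and 24.50% of the members' TPM, against 60.5% and 59.4% in the short group. In M4 counts the long group had 1033 and 1158, against 106 and 112 in the short group. The groups also differed in shared sequence, with a median of 75.3% own stretches in the long group and 40.6% in the short group. The short group holds Hist1h2ap, Hist2h2aa2 and Hist1h4m, each with 0 M4 counts. The part of shared sequence in these differences was not tested. No read position is given in the tables, so whether reads fell beyond the stem-loop was not tested.

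The 25 members without a match in the leading transcript comprised 15 with no annotated 3′ UTR, the 3 pseudogenes and 7 others. Among these, Hist2h2be has an annotated 3′ UTR of 2192 bases and Hist1h2bc one of 742 bases, and no match lay in either. Hist1h2bc was also the only member whose leading transcript had more than 1 exon, the other 69 having 1. The letters AATAAA or ATTAAA, found in many poly(A) signals, lay within the last 50 bases of 19 of 72 protein-coding member transcripts (26.4%), against 50.2% of all protein-coding transcripts. Hist1h2be was the detected member whose leading transcript was not protein-coding. Its other transcripts, Hist1h2be-201 and Hist1h2be-202, do hold a match. Its transcript Hist1h2be-203, a processed transcript of 2099 bases, took 80.8% ± 2.75 of its TPM (SD, n = 2). That gene overlaps Hist1h1e on the same strand, so reads could be split between them.

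Other overlaps bear on the values as well. A different annotated gene overlapped 26 members, 13 of them detected, on the opposite strand for 11 of the 13 and on the same strand for 4. Strandedness is not given in the sources used here, so reads of a gene and its antisense partner may not be separable. Rows named as miRNAs lie on the opposite strand inside 19 of the 20 H2A members and took 457 and 636 estimated counts in all. The largest was Gm44346 inside Hist1h2an, with 213 and 313 estimated counts, against 6.06 and 22.84 for Hist1h2an itself. Both rows were higher in library 2. Hist3h2a overlaps Trim17, which had 21.31 and 69.19 estimated counts.

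Many H2A and H2B genes are arranged head to head and share the space between their starts. There were 14 such H2A and H2B pairs, and 1 further pair of Hist1h2bh and Hist1h3f, with starts 173 to 660 bases apart. Of the 14, 4 had both genes detected, 5 had 1 and 5 had neither. The H2A gene was higher by mean TPM in 9 pairs and the H2B gene in 4, with both at 0 in Hist1h2aa and Hist1h2ba. Over all 14 pairs the mean TPM summed to 189 for the H2A genes and 32.2 for the H2B genes. Most of the H2A sum was 1 gene, Hist1h2ap, with a mean of 132.55 TPM and only 6.93% own stretches.

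Single pairs went both ways. Hist1h2ap had 120.02 and 145.08 TPM, and its neighbour Hist1h2br 4.21 and 4.77 TPM. Hist3h2a had 17.07 and 17.77 TPM, and its neighbour Hist3h2bb-ps, a pseudogene, 0.73 and 0.70 TPM. Hist2h2ac had 7.65 and 10.09 TPM, and Hist2h2be 3.85 and 3.96 TPM. In these the H2A gene was the higher in both libraries. Hist1h2ac had 0.49 and 0.68 TPM, whereas its neighbour Hist1h2bc had 8.76 and 7.68 TPM. In Hist1h2aj and Hist1h2bm the order differed between the libraries, with 0 and 10.18 TPM for Hist1h2aj and 0.73 and 0.61 TPM for Hist1h2bm.

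**Figure D5:**
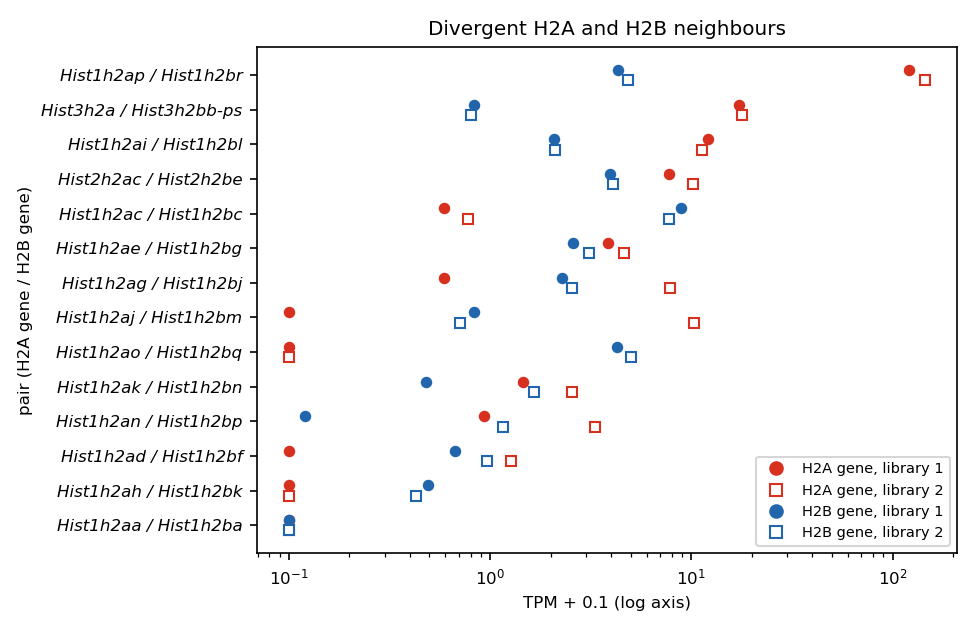
TPM plus 0.1 on a log axis for the 14 head-to-head pairs of an H2A gene (red) and an H2B gene (blue), with filled circles for library 1 and open squares for library 2; points at 0.1 are listed at 0. The H2A gene of the top pair, Hist1h2ap, lies more than 10 times above its neighbour Hist1h2br, and in the Hist1h2ac and Hist1h2bc pair the H2B gene is the higher.

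Between the libraries, members with many counts moved little. Among the 21 members with a summed count of at least 100, none differed by 1.5-fold or more in TPM, the largest fold being 1.45, against 6.72% of all genes with such counts. With a summed count of at least 10, 12 of 53 members (22.6%) were 1.5-fold or more higher in library 2, against 11.7% of all genes. Higher in library 1 by that much were 4 of 53 (7.55%), against 12.9% of all genes; these were Hist1h1a, Hist1h3a, Hist1h3e and Hist4h4. The 16 members together had summed counts of 10.39 to 91, so all were low. After TMM scaling the median log2 ratio of library 2 over library 1 was 0.26 for the 53 members, 36 of them higher in library 2, against 0.00 for all genes with such counts. For the 21 members with at least 100 counts it was 0.11, against a median within 0.01 of 0 for all genes.

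At 1 TPM or more in library 2 only were 11 members. The matching share over all genes was not computed, so this count has no background here. Hist1h2aj had 0 and 10.18 TPM. Hist1h2ag had 0.49 and 7.73 TPM. Hist1h2an had 0.83 and 3.24 TPM. These 3 H2A genes have 6.93%, 21.1% and 14.2% own stretches, and the intervals of each overlapped between the libraries. Among 10 H2A members with under 25% own stretches the TPM summed to 195.07 and 235.54, a ratio of 1.21. Most of that sum was Hist1h2ap, at 120.02 and 145.08 TPM, and Hist2h2aa2, at 61.60 and 56.66 TPM. The sum therefore says little about the 3 lower genes, and whether reads moved between near copies was not tested. Of the other 8 members at 1 TPM or more in library 2 only, Hist1h2bb had 0.18 and 1.81 TPM. Hist1h2bn had 0.38 and 1.55 TPM. Hist2h2aa1 had 0.17 and 1.43 TPM. Each was under 2 TPM in library 2. Hist2h2ab had 0.79 and 1.37 TPM. Hist1h3h had 0 and 1.30 TPM. Hist1h2ad had 0 and 1.17 TPM. The last 2 of the 11, Hist1h3i and Hist1h2bp, lay just over 1 TPM in library 2. Hist1h3i had 0.96 and 1.09 TPM. Hist1h2bp had 0.02 and 1.06 TPM. Hist1h3e was the reverse case, with 1.71 TPM in library 1 and 0.73 TPM in library 2.

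The deposited credibility intervals of TPM, whose level is not stated, were separate between the libraries for 3 of the 53 members (5.66%), against 19.5% of all genes with such counts. These were Hist1h1b, Hist1h4d and Hist1h2bb, each higher in library 2. Hist1h1b (chr13:21779883-21780625, minus strand), another linker histone, had 22 and 59 estimated counts with a posterior SD of 0, and its M4 counts were 23 and 55, so both tables gave it a higher value in library 2. Hist1h4d had intervals of 11.7 to 14.8 TPM and 15.8 to 19.4 TPM, and its M4 counts were 133 and 171. Hist1h2bb had 1.73 and 17.01 estimated counts and 1 and 10 M4 counts. These intervals cover the reads of 1 library and not the spread between mice, and with 1 library on each side no test of the differences can be made. The point value can also lie outside its own interval, as it did for 5 of the 53 members in library 1 and 2 in library 2, against 26.0% and 25.9% of all genes. Hist1h2ap was above its interval in both, with intervals of 88.5 to 115 TPM and 113 to 140 TPM.

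Set beside the replacement variants, the clustered genes were low. The 15 variant genes, 9 of them detected, summed to 4218 and 4238 TPM, which is 9.76 and 8.58 times the clustered sum. For H3, clustered genes gave 14.26 and 13.32 TPM, against 2466 and 2422 TPM for the variants, so clustered H3 was 0.575% and 0.547% of the total. For H2A, clustered genes gave 227.58 and 274.83 TPM, against 1682 and 1750 TPM for the variants, or 11.9% and 13.6% of the total. The type with the nearest balance was H1, with 33.34 and 40.49 TPM from clustered genes, against 70.34 and 65.64 TPM from variants.

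The variants were carried by a few genes. H3f3b, which encodes the replacement histone H3.3, had 1309.72 and 1237.74 TPM. H3f3a, which encodes the same protein, had 1091.37 and 1116.07 TPM. H2afz, an H2A variant found at many promoters, had 971.47 and 1033.45 TPM. Each was above all 70 clustered genes in both libraries. H1f0, a linker histone of cells at rest, had 70.13 and 65.64 TPM and so was above every clustered H1 gene. At 0 in both libraries were Hils1, H2bfm and H2afb1.

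Genes that make and turn over clustered histone mRNA were present. Of 27 listed, 25 were matched and 23 detected, none of them 1.5-fold or more apart between libraries. Slbp had 109.62 and 104.19 TPM. Npat, an activator of histone gene transcription, had 14.3 and 14.5 TPM. Snrpb, a protein of the ring that small nuclear RNAs carry, was highest with 327.88 and 338.94 TPM. Zfp473, a zinc finger protein of histone 3′ end processing, was below the threshold with 0.59 and 0.56 TPM. Rnu7, the small nuclear RNA that pairs with histone pre-mRNA, was listed at 0 in both libraries. It carries no poly(A) tail, and the reason for its 0 was not tested. All 16 histone chaperones and carriers were detected, with a mean of 2.65 TPM for Chaf1a, a subunit of the assembly factor that follows replication forks, and of 278 TPM for Rbbp4, which binds histones in several complexes.

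Genes of S phase and mitosis were detected in 17 of 18 cases, all but Bub1. The highest, Pcna, the sliding clamp of DNA polymerase, had 120.42 and 123.02 TPM. Mki67, a protein of dividing cells, had 2.96 and 6.31 TPM, and Birc5, a mitotic regulator, had 8.13 and 14.71 TPM. In TPM those 2 were 1.5-fold or more higher in library 2, as Hist1h1b was. In estimated counts Mki67 had 627 and 745.53, less than 1.5-fold apart, and Birc5 165 and 289.8. In TPM 1 of the 18, Bub1 with 0.80 and 0.51 TPM, was 1.5-fold or more higher in library 1. The 4 markers of cycling cells summed to 32.95 and 37.74 TPM. Of 10 RNAs that carry no poly(A) tail 6 were detected. The clustered genes summed to 432.19 and 494.21 TPM, against 364.6 and 480.87 TPM for this list. The near-identical Rn7s1 and Rn7s2, RNAs of the signal recognition particle, made up most of the list with 145.95 and 181.02 TPM each, above every clustered gene in both libraries. Rn7sk, the highest of them that has no near copy in the list, had 51.5 and 96.78 TPM. Library 2 was thus higher for this list as well as for the summed clustered genes, and the part of either list in the histone levels was not tested.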

How the data were processed

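For each library the authors deposited gene and transcript tables on GENCODE M21 and mm10, from transcriptome alignments, and a gene table on GENCODE M4 from genome alignments, per the deposited file lists. According to their headers, the deposited M21 tables hold the estimated count, TPM, FPKM, posterior means and SDs and credibility intervals, the transcript table adds each transcript's percent of its gene, and the deposited M4 table holds whole-number counts. Aligner, quantifier, counter, read length and strandedness: not given in the sources used here. From these files, sums, shares and ratios were computed with Python 3.11.15 and pandas 2.3.3. Detection needed 1 TPM in both libraries, and fold changes a summed count of 10. Estimated counts were rounded before scaling with edgeR 4.0.16 (TMM) or DESeq2 1.42.0 (size factors), with a prior count of 0.5. The 1.5-fold rule on TPM was tried on simulated data, whereas the scaling was not. That trial is not taken as a check of the rule at low counts. It therefore says nothing about the 16 members past 1.5-fold, whose summed counts were 10.39 to 91. Alternatives were other thresholds, scalings, posterior means, FPKM and leaving out either library. Sequences came from the GENCODE M21 transcripts and annotation. Rows that name no gene were left out. Each detected member was named, and of the others the 5 with the most counts, those at 1 TPM in 1 library only, and those next to the threshold; members discussed for sequence, overlap or pairing were chosen after their values were seen, as were the groups by own stretches and by bases after the stem-loop. Members and lists were chosen with earlier results of these data known. With 1 group no comparison was tested. An erythroid marker of the list is not reported here.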

Additional observations from a re-analysis of the deposited data

How the results depend on the processing

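Of 50 alternative values, 30 stayed within the replicate spread or within 1.5 times the count, and 20 moved. For shares, leaving out 1 library always lands within that spread, so those alternatives could not have moved. The 32 detected members became 53 at 0.1 TPM, 16 at 5 TPM and 21 by a summed count of at least 100, and ranged from 33 to 43 with either library left out. The share of TPM of 0.0466% became 0.0196% as a share of counts, 0.0527% of protein-coding TPM and 0.0183% without members under 25% own stretches, an alternative added after seeing the data, and ranged from 0.0435% to 0.0497% with either library left out. By counts instead of TPM, H1 took 19.3%, H2A 45.0%, H2B 14.7%, H3 2.33% and H4 18.6%; with posterior mean TPM, H2B took 13.5%. The 16 members past 1.5-fold became 10 at 2-fold and 0 with at least 100 counts, and 13 with TMM or DESeq2 scaling. The 3 separate intervals became 14 when posterior means over 2 combined posterior SDs apart were counted, a rule that leaves out 4 members whose posterior SD is 0, and 1 with at least 100 counts. The count share of members with a long annotated 3′ end, 47.5%, was 48.97% from 50 bases and 42.4% from 300 bases, both chosen after seeing the data. Of the 10 members leading by estimated counts, 6 led by M4 counts. The share of Hist1h2be-203 was 77.8% by estimated counts. Where the construction does not show it, the cause was not tested. Leaving out a library could not be done for the comparisons between libraries. No paired analysis was possible because there is 1 group. Members under 10 counts, 17 of the 70, are too shallow to rank.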
